A study of Mus musculus with 6 samples.

Results

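The HOPS complex and the SNARE proteins of autophagosome-lysosome fusion were examined as 10 genes: the SNARE genes Stx17, Snap29, Vamp8 and Ykt6, and the HOPS subunit genes Vps11, Vps16, Vps18, Vps33a, Vps39 and Vps41. They were chosen by their role in fusion, with earlier results of these data known. The study itself followed up STX17 and ATG14 partly on the basis of these RNA data. The 10 genes were taken by symbol from a table of 26898 genes, in which all 10 were found. Of the table, 14799 genes reached a group mean of 1 TPM in WT or KO cells and were tested; all 10 genes were among them, and each exceeded that level in both groups. TPM is a transcript level corrected for gene length and for the sum over all genes of its sample. The most abundant RNA, of 57 bp, took from 15.5% (WT 4) to 25.6% (KO 3) of that sum. The 3 WT samples (WT 4, WT 5 and WT 8) were primary mouse embryonic fibroblasts (MEFs) of the C57BL/6 strain, in which both Kansl1 alleles were flanked by recombination sites (Kansl1 fl/fl). The 3 KO samples (KO 3, KO 7 and KO 10) carried the same alleles with CAG-cre, a tamoxifen-dependent Cre recombinase under a promoter active in most cell types. Both groups were cultured at passage 3 and received 1 μM tamoxifen for 48 h; the labels give 10% serum and the study's methods a higher content. Because only KO cells carried Cre, loss of Kansl1 and the presence of Cre cannot be told apart.

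SNARE proteins draw a pair of membranes together by winding their helices into a bundle. STX17 on the closed autophagosome joins SNAP29 and the lysosomal VAMP8 to form one such bundle, and YKT6, SNAP29 and STX7 form a further one. HOPS holds the membranes in contact beforehand: VPS39 and VPS41 bind GTPases at its ends, VPS11, VPS16 and VPS18 form its backbone, and VPS33A, of the Sec1/Munc18 family, templates the SNARE bundle. The complex CORVET, which tethers early endosomes, shares the backbone and VPS33A with HOPS. KANSL1 is a scaffold of the chromatin-modifying NSL complex, which acts at gene promoters, and the study asked how its loss alters genes of autophagy.

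Because that question concerns promoters, 4 promoter windows of the genes are shown, for 3 genes that fell in KO cells (Stx17, Vps33a and Vps41) and 1 that was not called (Vps16). Each runs from 250 bases before to 50 bases after the RefSeq gene start in build GRCm38.p6, read on the strand of the gene. Capitals mark CACGTG, a core bound by the lysosomal gene regulator TFEB and other factors of its class, the GC box GGGCGG, and CCGGAAG, a core bound by ETS factors, each searched on both strands. No one of these contains another.
Stx17 (chr4:48124669-48124968, plus strand): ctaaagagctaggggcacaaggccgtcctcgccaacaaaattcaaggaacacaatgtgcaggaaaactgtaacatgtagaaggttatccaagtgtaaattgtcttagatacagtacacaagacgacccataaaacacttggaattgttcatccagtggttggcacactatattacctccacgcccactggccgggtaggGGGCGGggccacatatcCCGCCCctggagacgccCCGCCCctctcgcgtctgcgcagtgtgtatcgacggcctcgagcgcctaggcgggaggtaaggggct
Vps33a (chr5:123572966-123573265, minus strand): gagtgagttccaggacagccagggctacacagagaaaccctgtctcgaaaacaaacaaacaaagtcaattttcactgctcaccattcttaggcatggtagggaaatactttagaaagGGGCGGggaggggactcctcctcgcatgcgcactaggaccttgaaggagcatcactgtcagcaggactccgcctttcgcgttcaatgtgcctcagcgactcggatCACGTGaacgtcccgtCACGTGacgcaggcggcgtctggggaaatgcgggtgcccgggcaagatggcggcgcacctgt
Vps41 (chr13:18717042-18717341, plus strand): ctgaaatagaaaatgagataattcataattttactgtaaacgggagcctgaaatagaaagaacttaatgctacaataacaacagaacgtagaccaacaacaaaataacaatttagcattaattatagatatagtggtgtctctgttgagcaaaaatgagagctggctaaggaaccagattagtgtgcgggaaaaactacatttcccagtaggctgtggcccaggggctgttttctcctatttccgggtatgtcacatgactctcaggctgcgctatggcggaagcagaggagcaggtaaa
Vps16 (chr2:130424070-130424369, plus strand): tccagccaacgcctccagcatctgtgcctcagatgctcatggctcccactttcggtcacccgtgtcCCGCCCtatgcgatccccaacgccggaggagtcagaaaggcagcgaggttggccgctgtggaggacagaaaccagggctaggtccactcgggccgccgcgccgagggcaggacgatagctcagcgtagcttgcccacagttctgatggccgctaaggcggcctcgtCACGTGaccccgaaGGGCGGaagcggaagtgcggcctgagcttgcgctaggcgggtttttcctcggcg
Windows were found for 8 of the 10 genes, with none for Vps11 and Vps39. CACGTG stood in 2 of the 8, those of Vps33a and Vps16, and in 7.15% of all 32851 windows. Vps33a held it at 2 places and Vps16 at 1. GGGCGG was found in 5 of the 8 (Stx17, Vps16, Vps18, Vps33a and Ykt6) and in 35.7% of all windows, and CCGGAAG in 2 of the 8 (Vps18 and Ykt6) and in 8.86%. The number of CpG sites was 17 for Stx17, 20 for Vps33a, 6 for Vps41 and 28 for Vps16, against a median of 7 over all windows. Thus Vps33a, which fell, and Vps16, which was not called, shared CACGTG, and Vps41 held none of the 3 motifs. A match describes letters only.

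The groups were checked first. Kansl1 was between 24.4 and 28.5 TPM in WT and between 13.7 and 15.8 TPM in KO cells. On average KO cells held 55.1% of the WT level. The direction matched the labels of all 6 samples. This level covers all exons of the gene together, so the deleted part was not measured on its own. All 10 fibroblast markers, which included Col1a1, Vim and Fn1, had a mean of at least 1 TPM in both groups, and none separated the groups. Of 9 macrophage markers 7 were tested and 6 of these were higher in every KO sample than in every WT sample, against 13.3% of tested genes. Adgre1, 1 of the 6, averaged 0.753 TPM in WT and 2.05 TPM in KO, so it was tested only through the KO group. The summed level of the 9 was 36.5 to 41.5 TPM in WT and 76.8 to 153 TPM in KO, highest in KO 10. Lyz2 passed the thresholds given below (22.5 TPM on average in WT and 73.6 TPM in KO, limma adjusted p = 0.00142), and Tyrobp, Adgre1, Csf1r, Fcer1g and Cd68 averaged 203% to 296% of WT. Cd14 overlapped between the groups, and Ptprc and Itgam, too low to be tested, were at most 0.26 and 0.38 TPM, highest in KO 10. Endothelial markers summed to 1.05 to 1.74 TPM in WT and 2.23 to 2.86 TPM in KO, and epithelial markers to 40.4 to 45.7 TPM and 49.2 to 66.3 TPM. Skeletal muscle and neural markers overlapped between the groups in their sums. The part of these cells in the results below was not tested. Reads were recovered from the TPM values for 17655495 (KO 3) to 27718259 (KO 7) reads per sample, and the 10 genes were counted by 235 (Stx17 in KO 3) to 4183 (Ykt6 in KO 7) reads.

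Of the 10 genes, 4 fell in KO MEFs: Stx17 among the SNARE genes and Vps33a, Vps39 and Vps41 among the HOPS genes. The 3 subunit genes of the HOPS backbone and the SNARE genes Snap29 and Ykt6 were not called, nor did they pass at an adjusted p-value of 0.05. The count of 4 was 3 in 5 of the 6 fits without 1 sample, 2 without WT 5, and 1 (Vps33a) with all 26898 genes tested. Stx17 and Vps39 fell to 46.0% and 49.3% of the WT mean, Vps33a to 52.6% and Vps41 to 64.9%. The thresholds were those of the study, 0.005 for the adjusted p-value and 0.5 for the size of the log2 fold change, applied here to limma, a linear model with shared variance across genes. At these thresholds 9.03% of all tested genes were lower. No gene of the 10 was called higher by limma, against 1.64% of all tested genes; before adjustment 0 of the 10 were higher and 5 lower at p under 0.05, against 12.2% and 27.2% of tested genes, and voom at the same thresholds called 0 higher and 4 lower, against 2.93% and 14.5%. At an adjusted p-value under 0.05 alone, Vamp8 joined the other 4, where 20.7% of tested genes were lower and 7.14% higher (0 of the 10). In 6 of the 10 genes every KO sample lay below every WT sample, against 29.9% of tested genes, and in 0 of the 10 did it lie above, against 13.3%. The median log2 fold change was -0.34 over the 10 genes and -0.07 over all tested genes. In bulk RNA, fewer cells of a type and less RNA per cell cannot be told apart.

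**Figure D1:**
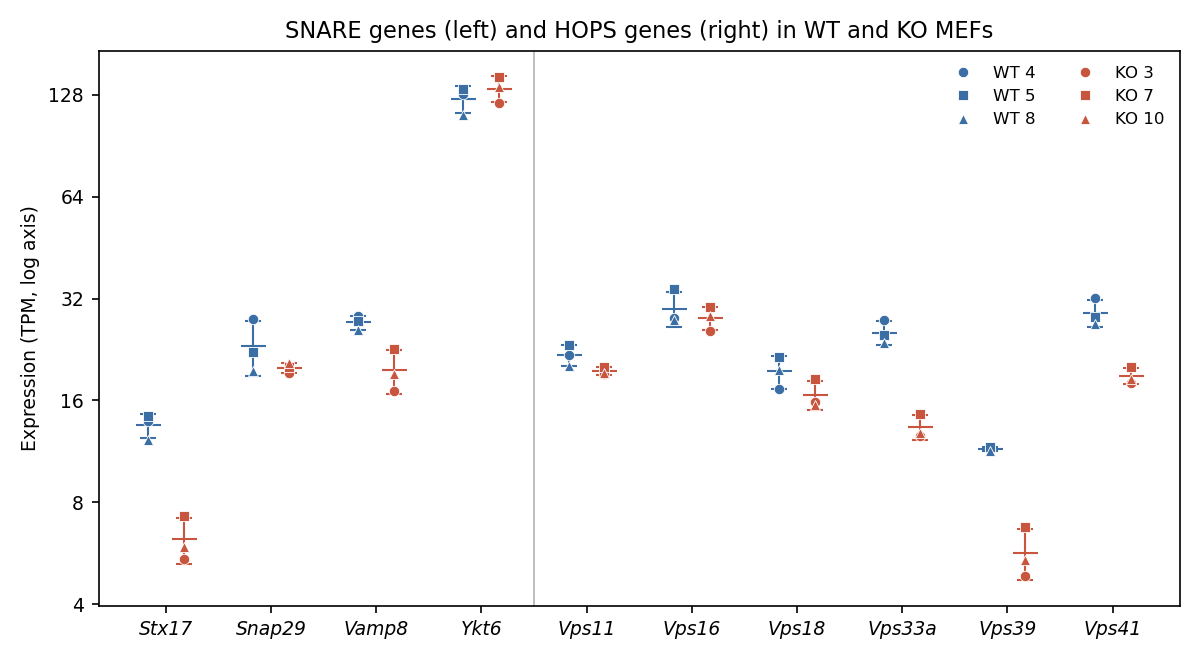
Expression in TPM on a log axis for the 4 SNARE genes and 6 HOPS genes, with 1 point per sample and the mean ± SD of the 3 WT (blue) and 3 KO (red) samples. The red points lie below all blue points for Stx17, Vamp8, Vps11, Vps33a, Vps39 and Vps41, with the widest gaps at Stx17 and Vps39.

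Stx17 (ENSMUSG00000061455.13, chr4:48124915-48186507), the SNARE of the autophagosome, stood at 13.9, 14.4 and 12.2 TPM in WT 4, WT 5 and WT 8 and at 5.44, 7.29 and 5.91 TPM in KO 3, KO 7 and KO 10. The highest KO sample, KO 7, was well below the lowest WT sample, WT 8. The log2 fold change, on the log2(TPM + 1) scale used throughout, was -1.01 (SE 0.13, limma adjusted p = 0.000803). With all 26898 genes tested the adjusted p-value of limma was 0.00643, and the call was lost. The exons of Stx17 overlap those of no other annotated gene.

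Vamp8 (ENSMUSG00000050732.9, chr6:72385223-72390703), the lysosomal partner, stood at 28.4, 27.5 and 25.8 TPM in WT 4, WT 5 and WT 8 and at 17.02, 22.7 and 19.1 TPM in KO 3, KO 7 and KO 10. The groups did not overlap, but KO 7 came close to WT 8. Its log2 fold change of -0.46 (SE 0.12, 95% interval -0.73 to -0.18, limma adjusted p = 0.021) passed neither threshold of the study, and centring on the sample median reduced it to -0.26. It missed an adjusted p-value of 0.05 in 3 of the 6 fits that left out 1 sample (KO 3, KO 10 or WT 5), where the values ran up to 0.0754.

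Snap29 (ENSMUSG00000022765.10, chr16:17405986-17430827) supplies helices to both bundles. It stood at 27.8, 22.2 and 19.5 TPM in WT 4, WT 5 and WT 8 and at 19.2, 20.2 and 20.6 TPM in KO 3, KO 7 and KO 10. The WT samples were spread widely and the KO samples fell at their lower end, so that the groups overlapped. The log2 fold change was -0.19 with a 95% interval from -0.49 to 0.11 (limma adjusted p = 0.324), and its sign turned with centring on the sample median (0.00568). Without WT 4 Snap29 gave -0.056, and without WT 8 it gave -0.30. Its exons share 60 bp with the opposite-strand gene Pi4ka.

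Ykt6 (ENSMUSG00000002741.9, chr11:5955693-5967780), the lipid-anchored SNARE of the second bundle, was by far the most abundant of the 10 genes. It stood at 129, 134 and 112 TPM in WT 4, WT 5 and WT 8 and at 121, 145 and 135 TPM in KO 3, KO 7 and KO 10. The groups overlapped, and KO 7 and KO 10 exceeded all WT samples. The log2 fold change was 0.10 with a 95% interval from -0.15 to 0.35 (limma adjusted p = 0.534). Centring on the sample median gave 0.30 (limma adjusted p = 0.0023) and median-of-ratios scaling 0.20 (0.0101), both below the fold threshold.

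Whether Stx17 fell relative to its partners was asked within each sample, since such a ratio does not change with the scaling of the sample. Stx17 amounted to 10.8%, 10.8% and 11.0% of the Ykt6 level in WT 4, WT 5 and WT 8 and to 4.50%, 5.04% and 4.37% in KO 3, KO 7 and KO 10. The WT samples were nearly identical in this ratio, and the difference of mean log2 ratios was -1.23. Relative to Vamp8, Stx17 went from 49.6% ± 2.50 (SD, n = 3) in WT to 31.6% ± 0.676 (SD, n = 3) in KO cells, and relative to Snap29 from 59.2% ± 8.05 to 31.0% ± 4.43. Relative to Stx7, the third member of the YKT6 bundle, it went from 30.5% ± 3.52 to 16.3% ± 1.63. The groups overlapped for none of the 4 ratios. All 4 contain the same Stx17 values, which separated the groups on their own, so the ratios are not separate results. In the exact permutation test, two-sided, each ratio gave p = 0.1 (0.1 also when adjusted over the 4 ratios), the smallest value that 3 samples against 3 allow, so that this design cannot pass 0.05. Stx7 itself had a log2 fold change of -0.22 with an interval from -0.50 to 0.06.

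**Figure D2:**
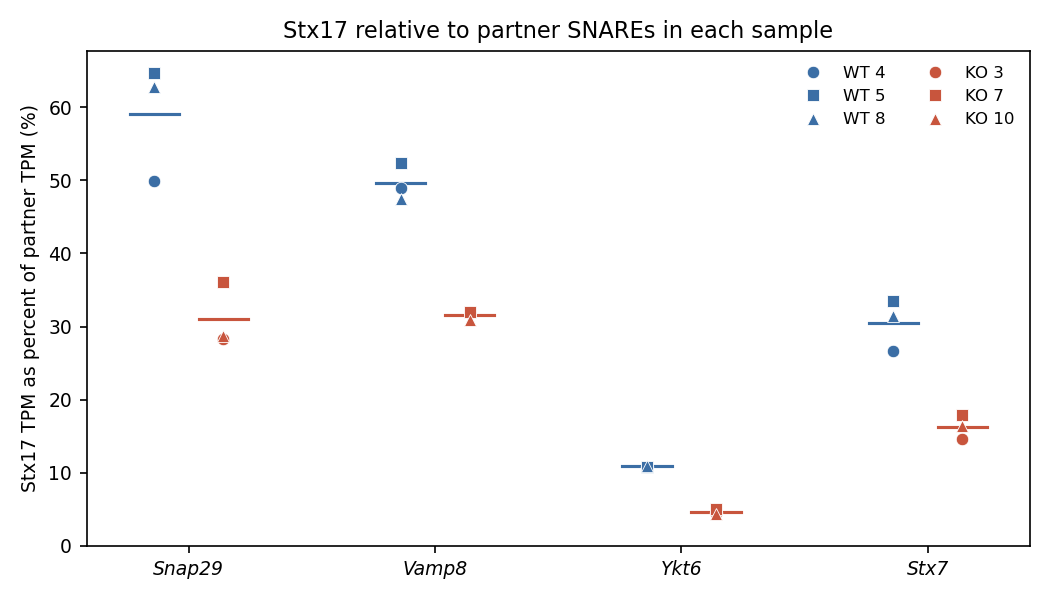
Stx17 level as a percentage of the level of each partner SNARE in the same sample (vertical axis, from 0), with 1 point per sample and a line at the mean of the 3 WT (blue) and 3 KO (red) samples. All KO points lie below all WT points for each of the 4 partners, with the smallest proportional drop for Vamp8.

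Among the HOPS genes, the SNARE-binding subunit and both end subunits were lower in KO cells. Vps39 (ENSMUSG00000027291.15, chr2:120316461-120353137), found in HOPS and not in CORVET, stood at 11.5, 11.6 and 11.4 TPM in WT 4, WT 5 and WT 8 and at 4.86, 6.75 and 5.41 TPM in KO 3, KO 7 and KO 10. The SD of the 3 WT samples was 0.145 TPM, and every KO sample was far below them. The log2 fold change was -0.92 (SE 0.13, limma adjusted p = 0.00125). Without WT 5, the adjusted p-value of limma was 0.00503, and with all 26898 genes tested it was 0.0084, and the call was lost in both.

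Vps33a (ENSMUSG00000029434.12, chr5:123528659-123573038), the Sec1/Munc18 subunit, stood at 27.6, 25.0 and 23.6 TPM in WT 4, WT 5 and WT 8 and at 12.5, 14.6 and 12.9 TPM in KO 3, KO 7 and KO 10. The groups were separated by a wide gap. The log2 fold change was -0.88 (SE 0.11, limma adjusted p = 0.000691), and it was called lower in all 6 fits without 1 sample and in the 9 other fits. Of the 10 genes, Vps33a was the only one for which this held.

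Vps41 (ENSMUSG00000041236.8, chr13:18717286-18866811), the other subunit particular to HOPS, stood at 32.1, 28.3 and 26.9 TPM in WT 4, WT 5 and WT 8 and at 18.1, 20.0 and 18.5 TPM in KO 3, KO 7 and KO 10. All KO samples were below all WT samples. Its log2 fold change of -0.60 (SE 0.11, limma adjusted p = 0.00352) was the smallest of the 4 called genes. It missed them in each of the 6 fits without 1 sample (limma adjusted p = 0.00686 to 0.0189, log2 fold change -0.65 to -0.53) and in 4 of the 9 other fits. It missed only the fold threshold with centring on the sample median, at -0.40, and with median-of-ratios scaling, at -0.495.

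The backbone genes lay closer together. Vps11 (ENSMUSG00000032127.9, chr9:44347749-44361670) stood at 21.8, 23.3 and 20.2 TPM in WT 4, WT 5 and WT 8 and at 19.2, 20.1 and 19.3 TPM in KO 3, KO 7 and KO 10. KO 7 was barely below WT 8, and the log2 fold change was -0.15 with a 95% interval from -0.38 to 0.08 (limma adjusted p = 0.314). Vps16 (ENSMUSG00000027411.17, chr2:130424339-130444269), the subunit that binds VPS33A, stood at 28.1, 34.1 and 27.6 TPM in WT 4, WT 5 and WT 8 and at 25.6, 30.1 and 28.4 TPM in KO 3, KO 7 and KO 10. The groups overlapped, and the log2 fold change was -0.09 with an interval from -0.35 to 0.18 (limma adjusted p = 0.625). Its exons share 109 bp with the opposite-strand gene Pced1a.

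Vps18 (ENSMUSG00000034216.12, chr2:119288740-119298453) stood at 17.3, 21.5 and 19.7 TPM in WT 4, WT 5 and WT 8 and at 15.8, 18.6 and 15.5 TPM in KO 3, KO 7 and KO 10. KO 7 exceeded WT 4, so the groups overlapped. The log2 fold change was -0.22 with an interval from -0.49 to 0.06 (limma adjusted p = 0.223), and -0.020 with centring on the sample median. The intervals of these 3 genes exclude a fall as large as that of Stx17 but not a smaller one, and the sign of Vps11 (0.048) and Vps16 (0.11) turned with centring on the sample median, that of Vps16 also with median-of-ratios scaling (0.016).

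**Figure D3:**
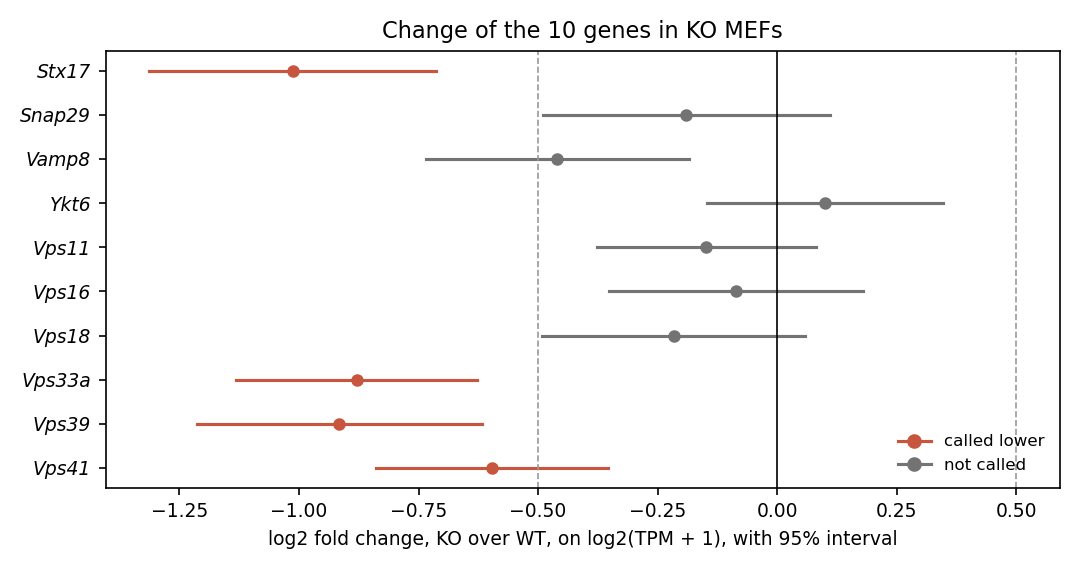
log2 fold change of KO over WT on the log2(TPM + 1) scale for each gene (point) with its 95% interval (line); dashed lines mark -0.5 and 0.5, and red marks genes called lower. Stx17, Vps33a, Vps39 and Vps41 lie left of -0.5, Vamp8 lies just right of it, and the intervals of Snap29, Ykt6, Vps11, Vps16 and Vps18 include 0.

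The summed level of the 6 HOPS genes was 138, 144 and 129 TPM in WT 4, WT 5 and WT 8 and 96.1, 110 and 99.99 TPM in KO 3, KO 7 and KO 10, or 74.4% of WT on average (exact permutation test, two-sided, p = 0.1, the smallest possible with 3 samples a group). Within that sum the makeup shifted. Vps33a held 18.5% ± 1.31 (SD, n = 3) in WT and 13.1% ± 0.197 in KO cells, and Vps39 8.40% ± 0.348 and 5.53% ± 0.546. Vps41 held 21.2% ± 1.80 and 18.5% ± 0.310. The shares add to a fixed total in each sample, so the shares of the other 3 subunits had to grow in sum, though not each of them. Vps16 went from 21.8% ± 1.74 to 27.5% ± 0.870, Vps11 from 15.9% ± 0.283 to 19.2% ± 0.868 and Vps18 from 14.2% ± 1.51 to 16.3% ± 0.681. The groups overlapped for none of the 6 subunits, at the smallest exact permutation p-value of 0.1 each (0.1 adjusted over the 6 subunits). The direction of each share was the same when any 1 sample was left out. With all samples the Vps18 share differed by 2.05 percentage points and that of Vps41 by -2.73. Without 1 sample these differences ran from 1.18 to 2.53 and from -3.50 to -1.74.

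The order of the levels changed with these falls. In WT cells Ykt6 (125 ± 11.5 TPM, SD, n = 3) was followed by Vps16, Vps41, Vamp8, Vps33a, Snap29, Vps11 and Vps18, and the sample ranges of each neighbouring pair from Vps16 to Vps18 overlapped. Stx17 and then Vps39 were the lowest, each with a range clear of its neighbour above. In KO cells Vps33a moved below Vps18, and its range (12.5 to 14.6 TPM) was clear of its neighbours. Stx17 (6.21 ± 0.958 TPM) and Vps39 (5.67 ± 0.974 TPM) remained at the bottom and overlapped.

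The genes that act beside HOPS and the SNAREs were compared as 7 lists of 40 genes, of which 38 were tested. Of these, 9 were called lower and 2 higher, where 9.03% and 1.64% of all tested genes were, with a median log2 fold change of -0.21 against -0.07. The lower count was 5 without KO 3, 4 without WT 5, 4 to 7 over the 6 fits without 1 sample, and 4 with all 26898 genes tested (Vamp7, Mon1a, Mon1b and Borcs5). The higher count was 1 (Tbc1d2) with all genes tested, without the variance trend and in 5 of the 6 fits without 1 sample (all but the one without WT 4), 3 with median-of-ratios scaling, and 4 beside 8 lower with centring on the sample median. The falls were found in 4 lists: the GTPases and activators that recruit HOPS, the adaptors and tethers, the subunits of BORC, and the other SNAREs of late endosomes and lysosomes.

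MON1A or MON1B with CCZ1 forms the exchange factor that activates RAB7, the GTPase of late endosomes. Mon1b fell from 11.3 ± 0.730 TPM (SD, n = 3) to 3.57 ± 0.263 TPM, Mon1a from 8.62 ± 0.332 TPM to 3.02 ± 0.262 TPM and Ccz1 from 31.5 ± 3.70 TPM to 18.0 ± 2.10 TPM. Their log2 fold changes were -1.43, -1.26 and -0.78 (limma adjusted p = 0.00017, 0.000275 and 0.00231). Mon1a and Mon1b thus fell to 35.1% and 31.5% of WT, a deeper fall than in any of the 10 genes, although the difference was not tested. Ccz1 missed the adjusted threshold without KO 3, KO 7, WT 4 or WT 5 in turn (up to 0.00889). In the same list of 8 genes, Arl8a, a GTPase that brings HOPS to lysosomes, rose from 125 ± 6.98 TPM to 179 ± 9.13 TPM (log2 fold change 0.52, limma adjusted p = 0.00332). All KO samples exceeded all WT samples, but the gene missed the thresholds without KO 3, KO 7, KO 10, WT 5 or WT 8, with values from 0.47 to 0.55 over the 6 fits. Rab7 itself had a log2 fold change of 0.03.

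Of 9 tested adaptors and tethers, 2 were lower, against 9.03% of all tested genes; none was called lower with all 26898 genes tested or without WT 5. Plekhm1, which links RAB7 to HOPS, fell from 12.7 ± 0.640 TPM to 7.07 ± 0.0460 TPM (log2 fold change -0.77, limma adjusted p = 0.0011). Atg14, which binds STX17 and SNAP29 at the autophagosome, fell from 5.82 ± 0.616 TPM to 2.54 ± 0.216 TPM (-0.95, 0.00138). Each missed the adjusted threshold in 2 of the 6 fits without 1 sample, Plekhm1 without KO 10 (0.00543) or WT 5 (0.0069) and Atg14 without KO 3 (0.00515) or WT 5 (0.00691).

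BORC is the complex that loads ARL8 onto lysosomes. Of its 7 tested subunit genes 3 were lower, against 9.03% of all tested genes: Borcs5, its membrane-anchored subunit, went from 6.11 ± 0.313 TPM to 2.00 ± 0.0916 TPM (log2 fold change -1.25, limma adjusted p = 0.000358), Borcs8 from 16.2 ± 1.27 TPM to 9.78 ± 1.48 TPM (-0.68, 0.00452) and Kxd1 from 11.9 ± 0.805 TPM to 7.18 ± 0.129 TPM (-0.66, 0.00249). Borcs8 held in only 1 of the 6 fits without 1 sample, the one without KO 7, and Kxd1 in none (limma adjusted p up to 0.0201 and 0.0166). Borcs5 alone of the list was called lower with all 26898 genes tested, with centring, and without KO 3, KO 10, WT 4, WT 5 or WT 8. Bloc1s2, a subunit that BORC shares with another complex, lay in the other direction, at 46.8 ± 5.60 TPM in WT and 62.95 ± 3.14 TPM in KO with no overlap (log2 fold change 0.42, limma adjusted p = 0.0193), and was called higher with centring and with median-of-ratios scaling.

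Vamp7, the lysosomal SNARE outside the STX17 bundle, was the 1 gene of 4 called lower among the other SNAREs of late endosomes and lysosomes, against 9.03% of all tested genes. It fell from 31.3 ± 3.94 TPM to 14.1 ± 1.46 TPM (log2 fold change -1.10, limma adjusted p = 0.000487). No CORVET or CHEVI gene of 4 was called by limma; 2 were lower at an unadjusted p-value under 0.05, where 27.2% of tested genes were, and voom called 0, where it called 14.5% lower and 2.93% higher. The lowest adjusted p-value was that of Vipas39, a partner of the VPS33A relative VPS33B, at 17.9 ± 1.93 TPM in WT and 13.2 ± 1.37 TPM in KO (log2 fold change -0.41, limma adjusted p = 0.0327). The genes particular to CORVET, Vps8 and Tgfbrap1, had log2 fold changes of 0.00392 (95% interval -0.25 to 0.25) and -0.34 (-0.66 to -0.03, limma adjusted p = 0.102).

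Of 3 genes that take spent SNARE bundles apart none was called by limma; before adjustment 1 was lower and 1 higher at p under 0.05, against 27.2% and 12.2% of tested genes, and voom called 0, against 14.5% and 2.93%. The lowest adjusted p-value was that of Napa, the adaptor α-SNAP, at 102 ± 2.86 TPM in WT and 134 ± 8.13 TPM in KO (log2 fold change 0.39, limma adjusted p = 0.012). It passed the thresholds with centring on the sample median (0.59). Of 3 genes for proteins that switch RAB7 off, 1 was called higher, against 1.64% of all tested genes. This was Tbc1d2, which rose from 11.8 ± 1.90 TPM to 25.3 ± 0.950 TPM (log2 fold change 1.05, limma adjusted p = 0.000563). It was called higher in all 6 fits without 1 sample.

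**Figure D4:**
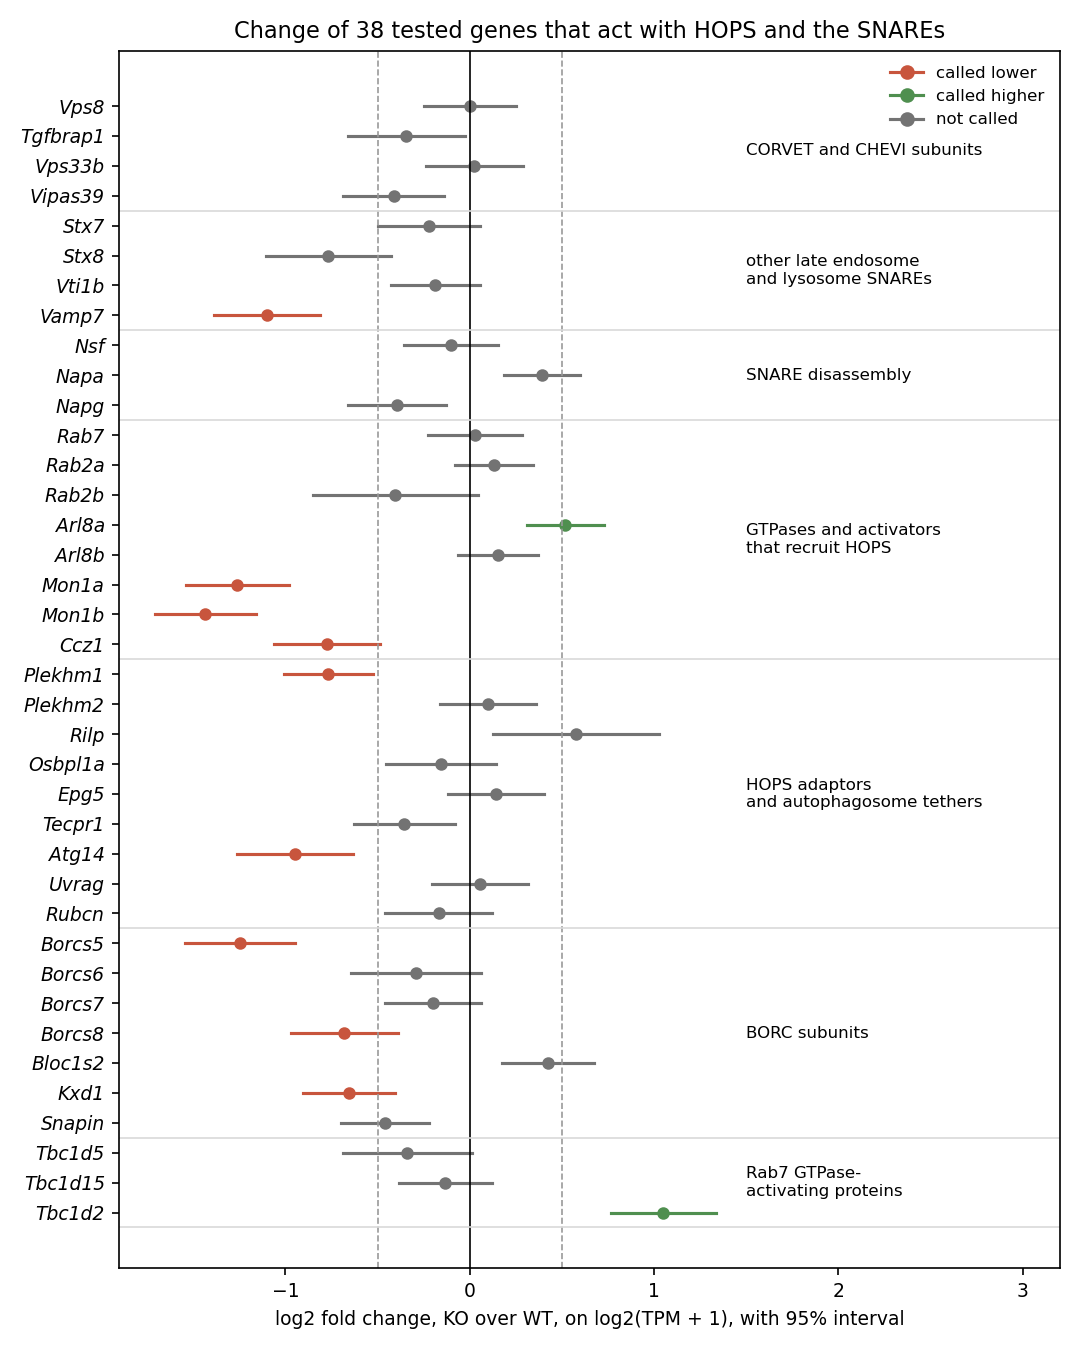
log2 fold change of KO over WT on the log2(TPM + 1) scale with its 95% interval for the 38 tested genes of the 7 lists, which are named on the right; dashed lines mark -0.5 and 0.5. The 9 genes called lower (red) include Mon1a, Mon1b and Borcs5 at the far left, and the 2 called higher (green) are Arl8a and Tbc1d2.

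As a description, the 47 other tested genes among the 10 and the 7 lists were ordered by the Pearson correlation of their log2(TPM + 1) with Stx17 over the 6 samples. The highest were Vps39 (0.993), Vamp7 (0.992), Vps33a (0.991), Atg14 (0.989) and Borcs8 (0.988). All 5 were lower in KO cells, and the 6 points share the difference between the groups and the scaling of each sample.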

How the data were processed

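Total RNA from 3 WT and 3 KO MEF cultures, which the study counts as separate mice, was sequenced with a library kit that does not mark strand, so overlapping antisense genes cannot be told apart. The authors aligned reads to mm10 with STAR; the submitters' processing notes name Bowtie 0.12.2, and the counting program is not given in the sources used here. The authors deposited TPM, summing to 1000000 per sample, with the log2 fold changes and adjusted p-values of their own comparison, which were not used.

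Here, the limma package (3.58.1, under R 4.3.3) fitted log2(TPM + 1) of every gene that averaged 1 TPM or more in a group, using a trended variance and Benjamini-Hochberg adjustment. Ratios and shares were tested with the exact permutation test of scipy 1.17.1. Gene positions came from GENCODE M21. TPM multiplied by exon length gave whole multiples of 1 read for 100% of 14020 to 15262 low values per sample (tolerance 0.05), and these recovered reads served to describe depth and for voom. In data simulated for the comparison of KO and WT over 14587 genes, the limma test recovered 34% of 100 genes changed by 1 on the log2 scale and 94% of 100 changed by 2, with 3 false calls among 131, and with nothing changed it made 0 calls over 14625 genes. The simulation changed 200 genes, as many up as down, whereas the data gave 1337 lower and 242 higher calls. The adjustment depends on how many genes change, so these percentages need not hold for the data.

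The named genes were the 10 genes, Kansl1, Stx7, every called gene of the 7 lists or, where none was called, the one with the lowest adjusted p-value, and the 5 genes most correlated with Stx17. Others named for context (Rab7, Vps8, Tgfbrap1, Bloc1s2, Stx8 and the marker genes) were chosen after their values were seen. The genes and lists were chosen with earlier results of these data known. Alternatives were other filters, pseudocounts, scalings and variance models, voom, other thresholds and leaving out each sample.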

Additional observations from a re-analysis of the deposited data

How the results depend on the processing

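No paired analysis was possible because no replicate number occurs in both groups. Against 4 of the 10 genes called lower, testing all 26898 genes left 1 (Vps33a), with Stx17 at a log2 fold change of -1.01 (limma adjusted p = 0.00643). Over its alternatives the adjusted p-value of limma for Stx17 ran from 3.01e-06 to 0.00643. The lowest came with the filter at 10 TPM, which Stx17 (13.5 TPM in WT, 6.21 TPM in KO) passed only through the WT group. Vps39 (11.5 and 5.67 TPM) did so too, and both were among the 4 genes called lower there. Leaving out 1 sample left 2 to 3 genes, the 2 without WT 5. Over those 6 fits Stx17 ranged from -1.12 to -0.94. The other fits and thresholds gave 3 to 5 lower genes, and none gave a higher one. Centring on the sample median moved the median of all tested genes by 0.20; there Snap29 (0.00568), Vps11 (0.048) and Vps16 (0.11) turned positive, as did Vps16 with median-of-ratios scaling (0.016) and without WT 5 (-0.14 to 0.0083 over the 6 fits). Over all genes, 1337 lower and 242 higher calls (84.7% lower) became 286 and 55 with all genes tested. They became 1740 and 304 with the most abundant RNA removed, 1441 and 473 under median-of-ratios scaling, and 2152 and 433 in the voom fit. With centring they became 1095 and 885 (55.3% lower), and without 1 sample 617 to 938 and 84 to 252. The causes were not tested. The fit of all genes tests more genes by construction.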

Other observations

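Outside the rule for named genes, Stx8, a SNARE that pairs with STX7 and VTI1B in late endosome fusion, lay just outside the thresholds. It stood between 4.65 and 5.61 TPM in WT and between 2.10 and 2.82 TPM in KO samples, a log2 fold change of -0.77 (limma adjusted p = 0.00512). It passed the thresholds under 5 of the 8 other fits that gave a value, and under none of the 6 fits without 1 sample. Over these alternatives the adjusted p-value ran from 0.000384 to 0.0265 (limma). Stx8 was chosen after its values were seen.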
